A study of Mus musculus with 3 samples.

Results

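The sarcoplasmic reticulum calcium handling genes described here are 10 genes of the mouse heart, Atp2a2, Pln, Casq1, Casq2, Hrc, Ryr2, Trdn, Jph2, Camk2d and Slc8a1. The rule that takes their probes uses gene names and no measured value. Every probe whose gene name in the array's own annotation is one of the 10 was taken, which gave 29 of the 41174 probes on the array, and 27 of these were among the 29576 probes bright enough to be tested. Each of 3 Agilent 2-colour arrays, called replicates 1 to 3, carried RNA of whole hearts from mice of strain C57/BL6 at 2 months of age. One channel, Cy5, is labelled Lrrc10-/-, a germline null of the cardiomyocyte gene Lrrc10, and the other, Cy3, is labelled Lrrc10+/+ (WT). Each RNA was pooled from 2 hearts, no animal received a treatment, and no array had its dyes exchanged. The labels call the WT RNA a heart reference pool and the methods speak of independent biological replicates, so it is not settled whether a single WT pool was used on all arrays. The comparison asks whether transcripts of calcium uptake, storage and release differed between hearts with and without Lrrc10, a gene whose loss is studied as a cause of dilated cardiomyopathy.

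In cardiomyocytes a small entry of calcium through the sarcolemma opens the ryanodine receptor in the membrane of the sarcoplasmic reticulum, and the calcium released there starts contraction. The heart relaxes as the pump SERCA returns calcium to the sarcoplasmic reticulum, where calsequestrin binds it, and as the sodium-calcium exchanger carries the rest out of the cell. Lower SERCA activity and leaky ryanodine receptors are well known features of failing hearts.

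The deleted gene was read first, as a check of the labels. The Lrrc10 probe had processed signals of 14283, 20828 and 17703 in Cy5, the channel labelled Lrrc10-/-, and of 476, 443 and 352 in Cy3, the channel labelled WT, on replicates 1, 2 and 3. The channel labelled as null was thus the brighter one on each array, with no overlap, at a log2 ratio of Cy5 over Cy3 of 5.37 ± 0.41 (SD, n = 3; limma, adjusted p = 2.51e-04). Whether this probe lies inside the deleted part of the gene is not given in the sources used here. A second measure also bears on the labels. Nppa, the gene of atrial natriuretic peptide and a textbook marker of cardiac stress, was brighter in Cy3 (labelled WT) on each array, at log2 ratios of −0.89, −0.61 and −0.82, and changed by at least 1.2-fold with a p under 0.05 on each. The study reads Nppa as raised in adult null hearts, so for this gene the direction by the labels is opposite to that of the study. Whether the channel labels are exchanged was not tested beyond these values. A direction below is therefore that of a channel with its label, never of a genotype. A positive log2 ratio means brighter in Cy5 (labelled Lrrc10-/-), and a negative one brighter in Cy3 (labelled WT).

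Median processed signals were close to each other in the 2 channels of an array, and 66.7% to 71.0% of the gene spots were well above background. Between 55 and 197 spots per channel were saturated. Of the cardiomyocyte markers, all 7 were tested and well above background, and 6 were saturated on at least 1 array, so the libraries carry the tissue of their label. Across the 29576 probes the ratios of any 2 arrays hardly went together, with Pearson's r from −0.18 to 0.10, and across the 27 calcium handling probes r ran from −0.11 to 0.17. These are correlations across probes of the same arrays, and probes are not independent replicates.

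None of the 27 probes of the 10 genes differed between the channels by limma at an adjusted p under 0.05, where 0.00676% of all probes did. The adjusted p of the lowest of them was 0.999967. At an unadjusted p under 0.05 there were 2 probes brighter in Cy5 (labelled Lrrc10-/-), 1 each of Slc8a1 and Trdn, against 1.54% of all probes, and 1 brighter in Cy3 (labelled WT), that of Casq1, against 1.52%. The methods' t-test gave 1 of the 27 at that threshold, the saturated Atp2a2 probe, against 4.21% of all probes, and 0 after Benjamini-Hochberg adjustment. The study selects probes by a p under 0.05, a signal of at least 20 and a change of at least 1.2-fold on all arrays, and its methods name a general test for the study without saying which p entered this step. With the p that each array gives for its own ratio, required on every array, the selection took 0 of the 27 in either direction, against 0.406% of all probes brighter in Cy5 and 0.511% brighter in Cy3. With limma's p in its place it took 0 brighter in Cy5, against 0.923% of all probes, and 1 in Cy3 (labelled WT), Casq1, against 1.12%. With the p of the methods' t-test, an alternative added after the data were seen, it took 0 in Cy5, against 0.967%, and 1 in Cy3, the saturated Atp2a2 probe, against 1.13%. The ratio was above 0 on all 3 arrays for 6 probes, against 10.0% of all probes, and below 0 on all 3 for 2, against 11.0%. In number the 6 were 3 of Trdn, 2 of Slc8a1 and 1 of Ryr2, and the 2 were Casq1 and the saturated Atp2a2 probe, whose side of 0 is not read. The adjusted p-values do not show that the genes were at the same level in both channels.

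**Figure D1:**
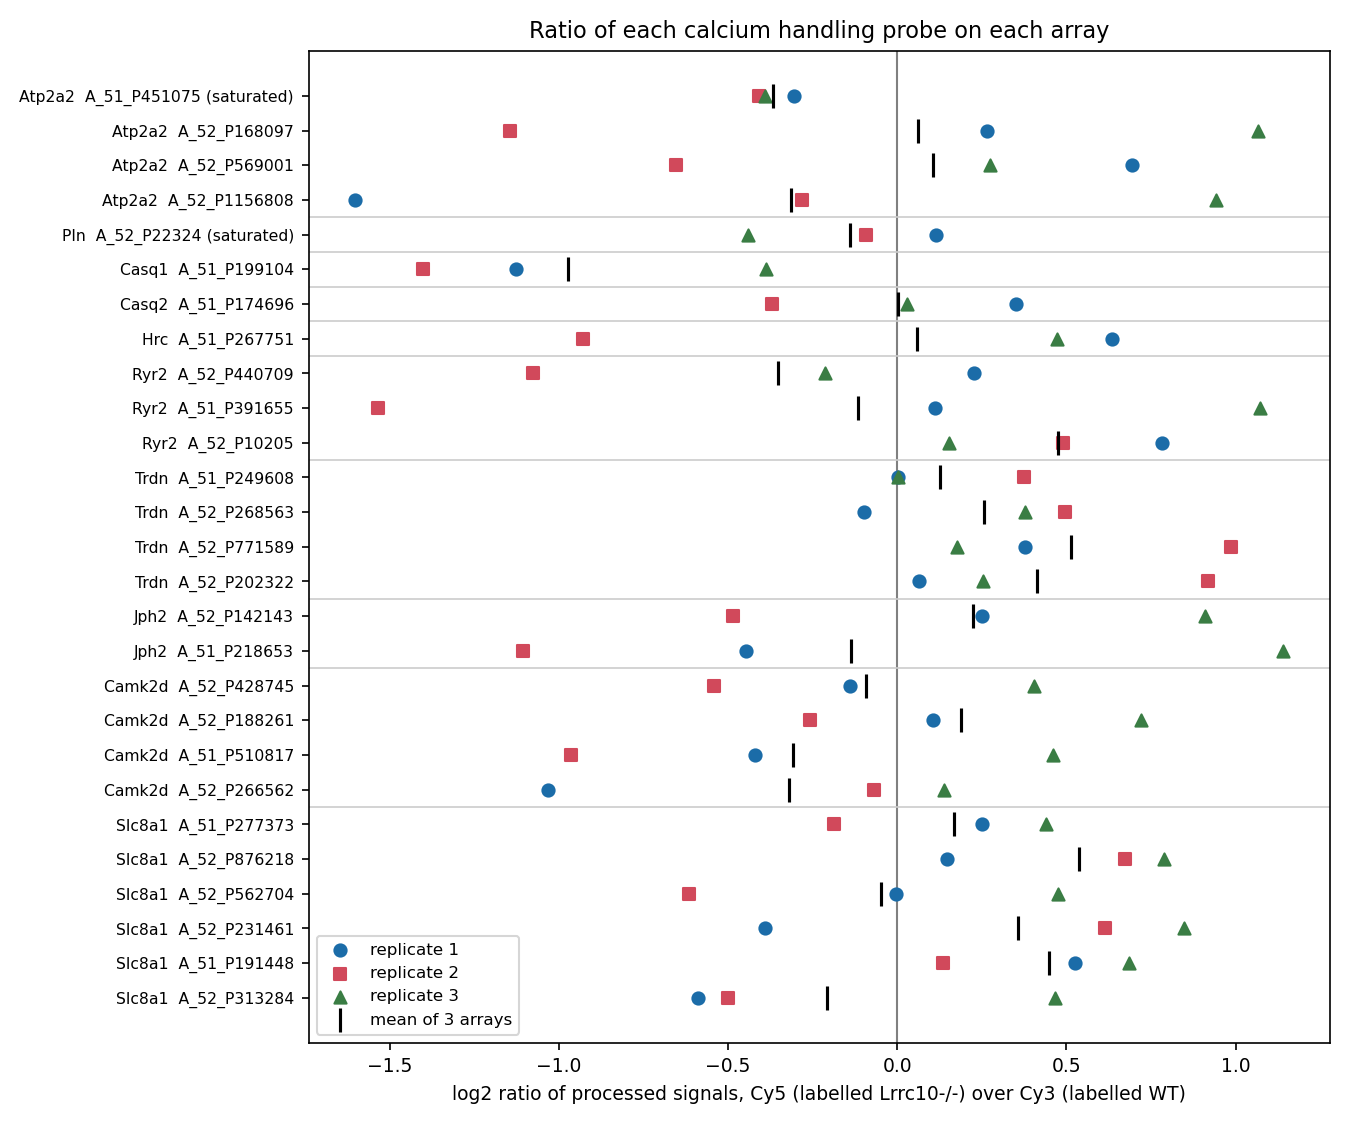
Each point is the log2 ratio of processed signals, Cy5 (labelled Lrrc10-/-) over Cy3 (labelled WT), of 1 probe on 1 array (horizontal axis), with the 27 tested probes grouped by gene (vertical axis) and a black bar at the mean of the 3 arrays. Most probes have points on both sides of 0, replicate 2 lies to the left for 19 of the 27, and the 4 Trdn probes have their replicate 2 point on the right.

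Calcium uptake rests on SERCA2, the pump encoded by Atp2a2, and on its inhibitor phospholamban, encoded by Pln. The brightest Atp2a2 probe, A_51_P451075, was saturated in Cy5 on 3 arrays and in Cy3 on 2. In saturated spots a ratio holds no usable fold, so none is read from it. The unsaturated probe A_52_P168097 had signals of 52627, 65603 and 40584 in Cy5 (labelled Lrrc10-/-) and of 43752, 145132 and 19379 in Cy3 (labelled WT) on replicates 1, 2 and 3. The Cy5 values stayed within a narrow band, and the Cy3 values ran from far below that band on replicate 3 to far above it on replicate 2, so the channels overlapped. Relative to the median of each array and channel, its level varied by 1.14-fold between arrays in Cy5 and by 5.08-fold in Cy3. The mean log2 ratio came to 0.062 ± 1.12 (SD, n = 3), with a 95% interval from limma of −0.80 to 0.93. The probe for transcript variant 1, A_52_P569001, had log2 ratios of 0.69, −0.65 and 0.28, also lowest on replicate 2. The last Atp2a2 probe, A_52_P1156808, was designed on a cerebellum cDNA clone and was well above background on 1 array in Cy5 and on 0 in Cy3, so that its ratios of −1.60, −0.28 and 0.94 come from signals near the floor.

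Pln was read by 1 probe, saturated on all 3 arrays in Cy5 and on none in Cy3. Its signals were 122885, 172880.0 and 112750.0 in Cy5 (labelled Lrrc10-/-) and 113568, 184322 and 153071 in Cy3 (labelled WT). The measured values of the channels overlapped. Since the Cy5 spots were at the top of the scanner's range, their true level could be higher than measured, and no fold is read.

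Calcium storage inside the sarcoplasmic reticulum rests on calsequestrin, of which Casq2 is the cardiac and Casq1 mainly the skeletal muscle form, and on the histidine-rich calcium binding protein, Hrc. The Casq2 probe had signals of 44394, 55672 and 44298 in Cy5 (labelled Lrrc10-/-) and of 34843, 72003 and 43393 in Cy3 (labelled WT) on replicates 1, 2 and 3. Cy3 was the higher on replicate 2 and Cy5 on the others, and the mean log2 ratio was 0.0027 ± 0.36 (SD, n = 3), with an interval of −0.48 to 0.49. The Hrc probe gave 99869.5, 106478 and 105656 in Cy5 and 64269, 202748 and 76249 in Cy3. Its Cy5 signal was nearly the same on the 3 arrays, while its Cy3 signal on replicate 2 was above all the others. Relative to the median of each array and channel, its level varied by 1.47-fold in Cy5 and by 2.43-fold in Cy3. The mean log2 ratio of 0.059 ± 0.86 (SD, n = 3) hides ratios of 0.64, −0.93 and 0.47.

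Of the 27 probes, that of Casq1 had the mean ratio farthest from 0. Its probe had signals of 107, 148 and 135 in Cy5 (labelled Lrrc10-/-) and of 234, 392 and 176 in Cy3 (labelled WT) on replicates 1, 2 and 3. The channels did not overlap, and Cy3 was the brighter on each array. The log2 ratios were −1.13, −1.40 and −0.39, with a mean of −0.97 ± 0.52 (SD, n = 3), a standard error of 0.28 and an interval of −1.61 to −0.33. The unadjusted p from limma was 0.0081 and the adjusted p 0.999967, and on replicate 3 the array's own p was 0.0702, so the selection with each array's own p did not take it, while with limma's p it did. The ratio shrank to −0.27 with normexp and loess and to −0.17 with normexp and median centring. With background-subtracted signals, median centred, it was −0.77. The cause of these shifts was not tested. Without replicate 3 the log2 ratio was −1.26 with an adjusted p of 0.0247, in a fit of 2 arrays that called 511 probes. Before background subtraction and dye normalization the log2 ratios of the probe were −0.039, −0.43 and 0.20. The median over all tested probes was 0.52, 0.29 and 0.32 there. Of the skeletal muscle markers, 10 of 11 were tested, none of them at 0 or below background throughout, and their summed signal was 160453 to 236507 in Cy5 and 133036 to 357125 in Cy3. Most of this sum came from the Myh4 probe, which was saturated on 2 arrays in Cy5 and 1 in Cy3. The parvalbumin gene Pvalb was below 0 on all 3 arrays, 1 of the 10, and the median log2 ratios of the list were 0.0046, −0.0046 and −0.078. The part of skeletal muscle in the Casq1 result was not tested beyond these values. In whole hearts, fewer cells of a type and less RNA per cell cannot be told apart.

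Of these groups, 3 probes whose signals are given in full above are shown, because each ratio is that of a single stretch of a transcript. The capitals mark the full 60-base target of each, 5′ to 3′. The first is the unsaturated Atp2a2 probe, the second is Casq1 and the third is Hrc.
Atp2a2 A_52_P168097: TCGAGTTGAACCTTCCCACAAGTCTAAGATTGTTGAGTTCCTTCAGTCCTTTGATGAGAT
Casq1 A_51_P199104: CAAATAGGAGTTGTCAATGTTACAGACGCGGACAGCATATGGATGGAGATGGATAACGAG
Hrc A_51_P267751: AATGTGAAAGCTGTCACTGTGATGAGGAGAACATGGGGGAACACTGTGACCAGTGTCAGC

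Release of calcium runs through the cardiac ryanodine receptor, Ryr2, which triadin (Trdn) ties to calsequestrin and which junctophilin 2 (Jph2) holds opposite the channels of the sarcolemma. The 3 Ryr2 probes disagreed. The brightest, A_52_P440709, had log2 ratios of 0.23, −1.08 and −0.21 and a mean of −0.35 ± 0.66 (SD, n = 3). Probe A_51_P391655 had signals of 936, 949 and 1146 in Cy5 (labelled Lrrc10-/-) and of 866, 2751 and 545 in Cy3 (labelled WT) on replicates 1, 2 and 3. The Cy5 signals lay close together, and Cy3 was the lowest of the 6 values on replicate 3 and by far the highest on replicate 2. Relative to the median of each array and channel, the level of this probe varied by 1.79-fold in Cy5 and by 3.43-fold in Cy3. The largest SD of a ratio among the 27 probes was that of this one, with a log2 ratio of −0.12 ± 1.32 (SD, n = 3). Probe A_52_P10205, from another cDNA of the gene, was brighter in Cy5 on each array, at log2 ratios of 0.78, 0.49 and 0.15 and an unadjusted p from limma of 0.067.

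The 4 Trdn probes differed from most of the others on replicate 2. Probe A_52_P202322 had signals of 954, 1632 and 1145 in Cy5 (labelled Lrrc10-/-) and of 913, 863 and 961 in Cy3 (labelled WT) on replicates 1, 2 and 3. Its Cy3 signals stayed level and its Cy5 signal was the highest on replicate 2, with a mean log2 ratio of 0.41 ± 0.45 (SD, n = 3). Relative to the median of each array and channel, though, its level varied by 1.37-fold in Cy5 and by 1.64-fold in Cy3. Probe A_52_P771589 behaved alike, with ratios of 0.38, 0.99 and 0.18, a mean of 0.51 ± 0.42 (SD, n = 3) and an unadjusted p of 0.043 from limma, the lowest among the 4. The ratios of A_51_P249608, for the cardiac isoform 3, were 0.0022, 0.37 and 0.00094, and those of A_52_P268563 were −0.10, 0.49 and 0.38. On replicate 2 all 4 Trdn probes were brighter in Cy5, while 19 of the 27 calcium handling probes and 2 of the 3 Ryr2 probes were brighter in Cy3. Before background subtraction and dye normalization the log2 ratios of the 4 Trdn probes on this array were 0.86, 0.50, 0.91 and 0.86. All lay above the median of 0.29 of all tested probes. No test of this difference between genes was run.

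The Jph2 probes had wide ratios in both directions. The brighter, A_52_P142143, gave 0.25, −0.49 and 0.91 and a mean of 0.23 ± 0.70 (SD, n = 3). The other, A_51_P218653, had signals of 1595, 2276 and 461 in Cy5 (labelled Lrrc10-/-) and of 2175, 4900.3 and 209 in Cy3 (labelled WT) on replicates 1, 2 and 3. Replicate 3 was low in both channels, more so in Cy3, and relative to each array's median the Cy3 level varied by 15.89-fold, more than for any other of the 27 probes. For release the shown probes are those of Ryr2 and Trdn that moved in opposite ways on replicate 2, again with the 60-base target in capitals.
Ryr2 A_51_P391655: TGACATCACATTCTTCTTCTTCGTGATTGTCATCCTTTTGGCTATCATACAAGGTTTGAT
Trdn A_52_P202322: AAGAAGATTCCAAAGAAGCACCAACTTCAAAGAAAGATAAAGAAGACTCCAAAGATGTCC

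**Figure D2:**
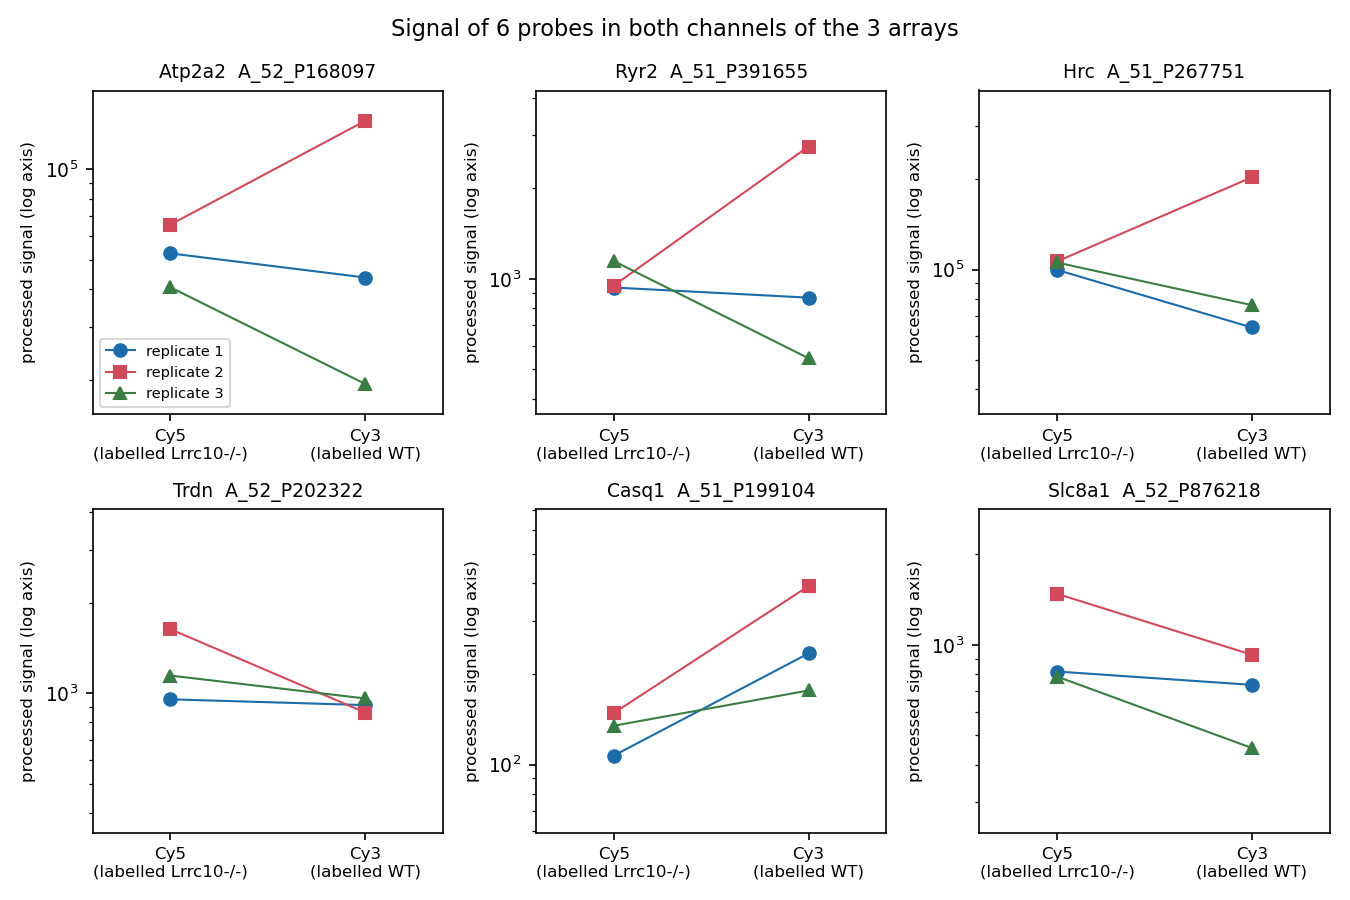
Processed signals (vertical axis, log scale, own range per panel) of 6 probes in Cy5 (labelled Lrrc10-/-) and Cy3 (labelled WT), with 1 line for each of the 3 arrays. In the Atp2a2, Ryr2 and Hrc panels the line of replicate 2 rises to Cy3 while the others fall, the Trdn panel has its high replicate 2 value in Cy5, and in the Casq1 panel all 3 lines rise to Cy3.

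Camk2d encodes the main cardiac calcium/calmodulin-dependent protein kinase, which phosphorylates the ryanodine receptor and phospholamban. Of its 5 probes 4 were tested, and the fifth was not well above background in either channel of any array. The brightest, A_52_P428745, had signals of 14649.9, 19324 and 14169 in Cy5 (labelled Lrrc10-/-) and of 16145, 28161 and 10702 in Cy3 (labelled WT) on replicates 1, 2 and 3, with overlap. Its log2 ratio was −0.093 ± 0.48 (SD, n = 3), with an interval of −0.61 to 0.42. The means of the other 3 ran from −0.32 to 0.19. The 4 probes were all below 0 on replicate 2 and all above 0 on replicate 3 in the processed signals. Before background subtraction and dye normalization their log2 ratios on replicate 2 were −0.54, 0.18, −0.52 and 0.39. The median over all tested probes was 0.29, so that the last lay above it.

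Slc8a1 encodes the sodium-calcium exchanger NCX1 of the sarcolemma, the main route by which calcium leaves the cell. It had 7 probes, 1 of them not well above background on any array, and the 6 tested ones split. The brightest, A_51_P277373, had log2 ratios of 0.25, −0.19 and 0.44 and a mean of 0.17 ± 0.32 (SD, n = 3). Probe A_52_P876218 had signals of 815, 1478 and 785 in Cy5 (labelled Lrrc10-/-) and of 736, 927 and 454 in Cy3 (labelled WT) on replicates 1, 2 and 3. Cy5 was the brighter channel on each array although the ranges overlapped, with a log2 ratio of 0.54 ± 0.34 (SD, n = 3), an interval of 0.039 to 1.03 and an unadjusted p from limma of 0.038. Probe A_51_P191448 was also brighter in Cy5 on each array, at 0.52, 0.14 and 0.68, while A_52_P231461, designed on the same transcript, gave −0.39, 0.61 and 0.85. Against these, A_52_P562704 gave −0.0032, −0.61 and 0.47, and A_52_P313284, designed on the isoform named NaCa3, gave −0.59, −0.50 and 0.47. On replicate 3 all 6 were above 0, and on replicates 1 and 2 there were 3 below 0 each. The 2 probes shown are both annotated to the exchanger gene, and of the 3 arrays their ratios differ most on replicate 1. Other pairs, such as A_51_P191448 and A_52_P313284, lay farther apart there. The full target of each shown probe is in capitals.
Slc8a1 A_52_P562704: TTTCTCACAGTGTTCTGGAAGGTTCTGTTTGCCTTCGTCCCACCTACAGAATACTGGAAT
Slc8a1 A_52_P313284: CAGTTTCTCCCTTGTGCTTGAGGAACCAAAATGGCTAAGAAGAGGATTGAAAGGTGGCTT

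The probes were compared with each other letter by letter. Between the probes of the members and those of their paralogs, 91 pairs in all, the best ungapped match held 25 identical bases of 60 and the longest shared run 10. Between probes of the same member, 47 pairs, the numbers were 27 and 8. Only probes were compared, not whole transcripts, so this cannot tell whether a probe also binds a paralog's transcript.

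Read array by array, the median of the 27 probes changed side. The median log2 ratio of the 27 probes was 0.11, −0.37 and 0.44 on replicates 1, 2 and 3, and that of all tested probes was 0.0046, 0.0061 and −0.0072. Without the 2 saturated probes the medians were 0.11, −0.37 and 0.46. On replicate 2 other lists of cell type markers were low as well, with medians of −0.47 for fibroblast, −0.48 for endothelial, −0.50 for fat and −0.16 for smooth muscle genes. The skeletal muscle list was at −0.0046 there, and the macrophage and atrial lists lay above 0 at 0.11 and 2.41. The cardiomyocyte list, with 6 of 7 genes saturated on at least 1 array, and the blood list, with 1 of 2, are not read as lists. Their unsaturated genes, Actn2 and Alas2, were at −1.25 and 1.04 on replicate 2. The fat and skeletal muscle medians each include 1 saturated gene, Fabp4 and Myh4. The part of these cell types in the replicate 2 values of the 27 probes was not tested. Below 0 were 11, 19 and 4 of the 27, and 49.6%, 49.5% and 50.8% of all probes. Over the means of the 3 arrays the median was 0.059, against 0.0014 for all probes. With the brightest probe of each gene, 9 of the 10 genes were below 0 on replicate 2, 3 on replicate 1 and 4 on replicate 3. Of all genes this held for 47.4%, 49.6% and 56.2%, in the same order. The median of the 10 means was −0.045, against −0.0089 for all genes. The median of the 10 was 0.17, −0.45 and 0.015 on replicates 1, 2 and 3, so that on replicate 3 it lay near 0. That of all genes was 0.0041, 0.036 and −0.058. Atp2a2 and Pln enter these counts by saturated probes. By those probes 0 of the 10 were called at an adjusted p under 0.05 (0.00991% of all 20186 genes tested), 0 met the selection with each array's own p (0.436% brighter in Cy5 and 0.619% in Cy3), 1 was above 0 on all arrays (9.47%) and 2 were below (12.3%). At an unadjusted p under 0.05 these were 0 in Cy5 (1.55%) and 1 in Cy3 (1.79%).

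As on the array as a whole, levels varied more between arrays in Cy3, the channel labelled WT, than in Cy5. Each level was taken relative to the median of its array and channel, and its SD over the 3 arrays was larger in Cy3 for 22 of the 27 probes, where this held for 77.7% of all tested probes. The median SD on the log2 scale was 0.25 in Cy5 and 0.36 in Cy3 for the 27, and 0.22 and 0.38 for all. The SD of the ratio itself had a median of 0.52 for the 27 and of 0.39 for all. The Cy3 level was highest on replicate 2 for 13 of the 27 probes, against 37.0% of all, and the Cy5 level was highest on replicate 3 for 20, against 43.5%. The dye, the RNA pool and the label are tied together on these arrays and cannot be told apart.

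**Figure D3:**
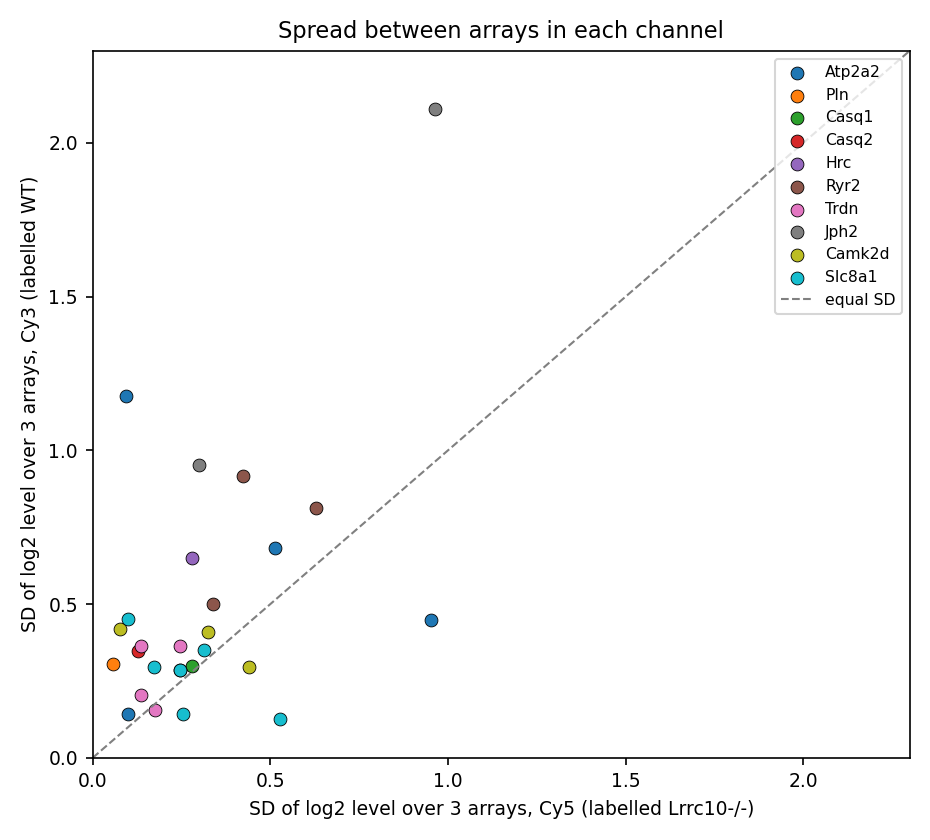
SD over the 3 arrays of the log2 level of each of the 27 probes, in Cy5 (labelled Lrrc10-/-, horizontal axis) and in Cy3 (labelled WT, vertical axis), coloured by gene, with a dashed line where both are equal. The 22 points above the line are the probes that varied more in Cy3, with a Jph2 probe at 2.11 and an Atp2a2 probe at 1.18 on top.

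The ratios of the 10 genes were also read before background subtraction and dye normalization. There, the median log2 ratio of the 27 probes was 0.83, 0.17 and 0.62 on replicates 1, 2 and 3, and that of all tested probes 0.52, 0.29 and 0.32, and 1, 12 and 0 of the 27 were below 0, against 4.49%, 20.3% and 13.3% of all tested probes. When the arrays were only centred on their medians after normexp background correction, 12 of the 27 were above 0 on all arrays, against 41.2% of all probes, and 0 below, against 11.6%. The median of the 27 was then 0.44, with that of all probes at 0.15.

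The other genes of calcium handling were read from lists, 73 genes in 5 groups, by the brightest probe of each, and 72 were tested. None was called by limma at an adjusted p under 0.05, none met the selection with each array's own p, and the median log2 ratio was 0.025, against −0.0089 for all genes. At an unadjusted p under 0.05 there were 3 brighter in Cy5 (labelled Lrrc10-/-), against 1.55% of all genes, and 0 in Cy3 (labelled WT), against 1.79%. On all 3 arrays 12 of the 72 were above 0, against 9.47% of all genes, and 9 were below, against 12.3%. Release and dyad genes numbered 22 (4 above and 4 below on all arrays), uptake and storage 10 (1 and 1), sarcolemma 15 of 16 tested (1 and 0), kinases and phosphatases 19 (6 and 2) and mitochondrial calcium 6 (0 and 2). The 3 past the unadjusted threshold, named after their values were seen, were calmodulin gene Calm2 at 0.47 ± 0.20 (SD, n = 3), the phosphodiesterase gene Pde3a at 0.54 ± 0.42 (SD, n = 3) and the glycogen-targeting phosphatase subunit gene Ppp1r3a at 0.63 ± 0.48 (SD, n = 3).

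**Figure D4:**
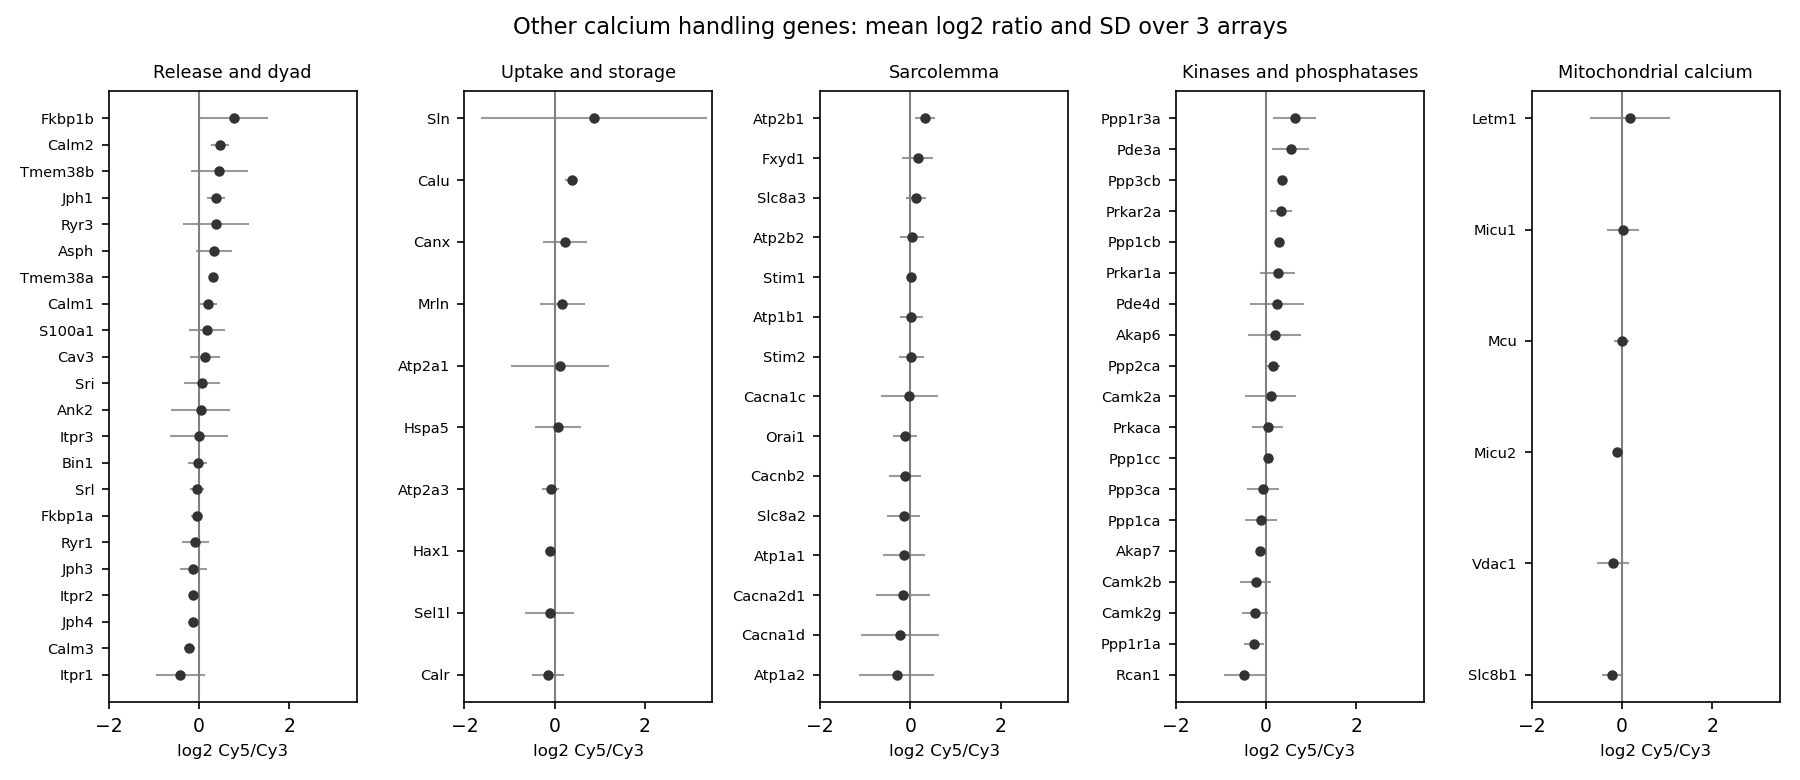
Mean log2 ratio, Cy5 (labelled Lrrc10-/-) over Cy3 (labelled WT), with SD over 3 arrays (bars) of 72 other calcium handling genes in 5 lists, by the brightest probe of each. Means lie between −0.49 and 0.88, and the bar of Sln is the widest.

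The paralogs of the members gave no call either. Atp2a1, the skeletal muscle SERCA, had signals of 21973, 23654 and 15884 in Cy5 (labelled Lrrc10-/-) and of 16426, 50104 and 7809 in Cy3 (labelled WT) on replicates 1, 2 and 3. Cy3 was again high on replicate 2 and low on replicate 3, and the ratios of 0.42, −1.08 and 1.02 are set beside those of Atp2a2 A_52_P168097, 0.27, −1.15 and 1.07. Atp2a3 was at −0.089 ± 0.20 (SD, n = 3). Among ryanodine receptors, Ryr1, the skeletal muscle form, was at −0.082 ± 0.30 (SD, n = 3) and Ryr3 at 0.37 ± 0.73 (SD, n = 3). The exchangers Slc8a2 and Slc8a3 were at −0.14 ± 0.37 (SD, n = 3) and 0.13 ± 0.22 (SD, n = 3), the latter well above background in Cy3 on 1 array only. Jph1, the skeletal muscle junctophilin, was above 0 on each array at 0.37 ± 0.20 (SD, n = 3), with an unadjusted p of 0.079 from limma. Jph3 was at −0.13 ± 0.30 (SD, n = 3), and Jph4, below 0 on each array, at −0.14 ± 0.10 (SD, n = 3). The kinase genes Camk2a, Camk2b and Camk2g were at 0.10, −0.24 and −0.26, with SDs of 0.29 to 0.56.

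Of the regulators, sarcolipin (Sln), an atrial inhibitor of SERCA, differed most from array to array. Its signals were 50.1, 1264 and 42.6 in Cy5 (labelled Lrrc10-/-) and 47.3, 97.9 and 94.4 in Cy3 (labelled WT) on replicates 1, 2 and 3. The Cy5 value of replicate 2 stood far above the rest, at a log2 ratio of 3.69 on that array. The atrial light chain gene Myl7 was high in the same place, with 111, 3021 and 84.4 in Cy5 and 128, 285 and 203 in Cy3. Nppa went the other way on that array, at the log2 ratio of −0.61 given with the check of the labels. All 4 atrial markers were tested, Myl7, Myl4, Sln and Nppa, none was at 0, 0 were above 0 on all arrays and 1, Nppa, was below. Their median log2 ratio was −0.16, 2.41 and −0.98 on replicates 1, 2 and 3, and their summed signal, most of it from Nppa, ran from 43551 to 84070 in Cy5 and from 76789 to 120935 in Cy3. The part of atrial tissue in the ratios of replicate 2 was not tested. Fkbp1b, which stabilizes the closed ryanodine receptor, was dim, well above background on 2 arrays in Cy5 and 0 in Cy3. Asph, the aspartate-beta-hydroxylase gene, was at 0.33 ± 0.40 (SD, n = 3), and Calr, the gene of calreticulin, at −0.15 ± 0.35 (SD, n = 3).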

How the data were processed

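RNA of 2 pooled hearts per channel was hybridized to 3 Agilent arrays on 1 slide. Per array the authors deposited scanner output (Feature Extraction 9.1.3.1): mean signal and background intensity, processed signal intensity (background subtracted, dyes normalized by linear and lowess steps), the log10 ratio of the processed signals, saturation flags and a p-value per spot. The deposited series table of log10 ratios was used as an alternative only. Here outlier spots were left out, ratios were put on the log2 scale, spots of a probe were averaged, and probes with a mean processed signal of at least 20 were tested. The mean ratio was tested against 0 with limma 3.58.1 in R 4.3.3 (eBayes with intensity trend, two-sided, Benjamini-Hochberg over all tested probes), a test that leaves out the spread of the WT RNA if 1 pool served all arrays. No array is repeated with dyes exchanged, so dye bias stays in the ratio, and the number of arrays limits the precision. The calculation was tested on simulated data.

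The members, the other calcium handling and marker lists, the rule for named genes (every member probe, the members' paralogs, 4 regulators and any gene called) and the alternatives were chosen with earlier results of these data known. A gene's value is that of its brightest tested probe. Probes were named by the array's annotation, and lists through the RefSeq table where an accession matched (24844 probes). Probe positions in the genome were not analysed here.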

Additional observations from a re-analysis of the deposited data

How the results depend on the processing

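The test itself pairs the 2 channels of an array through their ratio, and beyond it no paired analysis was possible because the arrays share nothing else by number. With each of 3 arrays left out in turn, limma called 0 to 1 member probes and 0 to 1 of the other genes, the single calls being Casq1 and Sln without replicate 3, where 1.71% of all probes and 1.99% of all genes were called. The selection with each array's own p then took 1 to 2 member probes brighter in Cy5 (labelled Lrrc10-/-) and 0 to 3 in Cy3 (labelled WT), with 2 in Cy5 without replicate 1 or 2 and 3 in Cy3 without replicate 3, and 1 to 6 and 0 to 2 of the other genes, most without replicates 2 and 3. Of all probes it then took 1.94% to 3.91% in Cy5 and 1.49% to 2.24% in Cy3, and of all genes 1.65% to 4.54% and 1.70% to 2.53%. Member probes above 0 on all arrays numbered 6 to 14, most without replicate 2 (25.7% of all probes), and those below 2 to 9, most without replicate 3 (22.5%), and the median of the 27 ran from −0.12 to 0.23. The methods' t-test, unadjusted, gave 1 member probe, the saturated Atp2a2 probe, and 5 other genes (4.21% of all probes and 4.52% of all genes), and after Benjamini-Hochberg adjustment 0 of each. In the selection, limma's p gave 1 member probe in Cy3 (1.12% of all probes) and 1 other gene in Cy5 (0.902% of all genes), no p gave 2 (1.95%) and 3 (1.60%), and the t-test's p, added after the data were seen, gave 1 (1.13%) and 2 (0.936%). With normexp (offset 50) and median centring 12 member probes were above 0 on all arrays (41.2% of all) and 0 below (11.6%), and without saturated probes 1 was below. Signs of brightest-probe log2 ratios, none of them called, turned as follows. Median centring after normexp gave Ryr2 0.39 and Camk2d 0.14, normexp with loess Hrc −0.20, and background-subtracted signals Hrc −0.19. The mean over all its probes put Ryr2 at 0.0012. With an array left out Ryr2 ran −0.65 to 0.0072, Casq2 −0.17 to 0.19, Jph2 −0.12 to 0.58, Camk2d −0.34 to 0.13 and Hrc −0.23 to 0.55. The saturated probes gave 0.14 (Atp2a2) and 0.50 (Pln) with median centring after normexp, and Pln 0.022 with loess, 0.043 with background-subtracted signals and −0.27 to 0.011 with an array left out, but no fold or sign is read from saturated spots. The brightest unsaturated Atp2a2 probe was at 0.062. Casq1 kept its sign but shrank from −0.97 to −0.27 with normexp and loess and −0.17 with normexp and median centring. It was −0.77 with background-subtracted signals, median centred. Trdn and Slc8a1 kept their sign, but moved from 0.13 and 0.17 to 0.82 and 0.70 with median centring after normexp, and ran 0.0016 to 0.19 and 0.031 to 0.34 with an array left out, lowest without replicate 2 for Trdn and without replicate 3 for Slc8a1. Casq2 and Jph2 moved to 0.55 and 0.61 with that centring. Among the values of the 10 genes, that of Casq1 without replicate 3 crossed the threshold and no other did. The cause of these shifts was not tested. Saturation and signals near background limit Atp2a2, Pln and the dimmest Camk2d and Slc8a1 probes.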
